A study of Mus musculus with 6 samples.

Results

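The genes described here are the ELR-type CXC chemokines, the ligands that draw neutrophils, together with their receptor gene Cxcr2. They are the ligands Cxcl1, Cxcl2, Cxcl3, Cxcl5, Cxcl15, and Ppbp, matched by their exact symbols, and with Cxcr2 they make up 7 of the 26167 genes in the expression tables. The family was chosen by its readout, because Cxcl15 and Cxcl2 had moved in opposite directions in Sora-treated tumors, so the levels and changes of all 7 genes are given as a description and without a p-value. Both groups of tumors grew from Hepa1-6 cells, a mouse hepatoma line that the sample labels spell Hep1-6, injected under the skin of female C57BL/6J mice aged 6 to 8 weeks. The Sora group received sorafenib (Sora), an inhibitor of several kinases, by the ip route at a dose of 10 mg/kg, given every other day from day 9 to day 15, and the labels name no agent for the control group. There was 1 RNA-seq library per tumor, from control tumors 1, 3, and 4 and Sora-treated tumors 2, 3, and 4. The libraries were made from whole tumors grown outside the liver, so tumor cells and host cells of the stroma, the skin, and the immune system contributed RNA together.

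ELR CXC chemokines carry the residues glutamate, leucine, and arginine just before the first cysteines of the protein, and most of them are known to bind CXCR2, a G protein-coupled receptor that steers neutrophils along a gradient of the ligand. Macrophages, epithelial cells, and tumor cells can release CXCL1, CXCL2, CXCL3, and CXCL5 after stimulation by interleukin 1, tumor necrosis factor, or interleukin 17, in part through NF-kB. Ppbp is best known from platelets, which release a precursor that is trimmed to a CXCR2 ligand, and Cxcl15, also called lungkine, was first described in lung epithelium.

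The 6 ligand genes lie together on the forward strand of mouse chromosome 5, in the order Cxcl5, Ppbp, Cxcl3, Cxcl15, Cxcl1, and Cxcl2 (NCBI's annotation of GRCm38.p6). They run from the start of Cxcl5 at chr5:90759298-90761625 to the end of Cxcl2 at chr5:90903899-90905938, a stretch of 146.6 kb. Cxcl15 (chr5:90794534-90803067) follows directly after Cxcl3 (chr5:90786101-90788093), and Cxcl1 (chr5:90891245-90893121) comes just before Cxcl2. Ppbp lies at chr5:90768518-90770063, and Cxcr2 lies apart from the ligands at chr1:74153994-74161246. In GENCODE, the gene Gm24322 overlaps Cxcl15, and it was not analysed here. The 250 bases before the start of the gene are printed for the adjacent pair Cxcl3 and Cxcl15, which differed in direction, and for Cxcl1 and Cxcl2, which lie next to each other and differed in size. The sequences are those of RefSeq on GRCm38.p6, all on the forward strand, at chr5:90890995-90891244 for Cxcl1, chr5:90903649-90903898 for Cxcl2, chr5:90785851-90786100 for Cxcl3, and chr5:90794284-90794533 for Cxcl15. Capitals mark matches to the NF-kB consensus or to the TATA box letters TATAAA.
Cxcl1: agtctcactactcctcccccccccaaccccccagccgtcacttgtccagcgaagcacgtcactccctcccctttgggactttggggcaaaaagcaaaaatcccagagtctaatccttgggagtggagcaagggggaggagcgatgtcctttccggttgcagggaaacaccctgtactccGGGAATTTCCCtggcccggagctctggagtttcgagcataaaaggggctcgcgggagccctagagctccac
Cxcl2: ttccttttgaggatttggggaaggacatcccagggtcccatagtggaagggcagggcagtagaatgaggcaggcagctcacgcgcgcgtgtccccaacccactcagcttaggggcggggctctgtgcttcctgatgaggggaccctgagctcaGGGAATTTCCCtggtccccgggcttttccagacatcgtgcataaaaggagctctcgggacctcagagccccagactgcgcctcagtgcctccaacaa
Cxcl3: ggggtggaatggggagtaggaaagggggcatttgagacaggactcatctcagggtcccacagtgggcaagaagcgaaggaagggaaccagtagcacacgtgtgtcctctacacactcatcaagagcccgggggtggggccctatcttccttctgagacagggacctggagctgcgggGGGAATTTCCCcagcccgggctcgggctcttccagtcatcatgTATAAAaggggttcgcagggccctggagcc
Cxcl15: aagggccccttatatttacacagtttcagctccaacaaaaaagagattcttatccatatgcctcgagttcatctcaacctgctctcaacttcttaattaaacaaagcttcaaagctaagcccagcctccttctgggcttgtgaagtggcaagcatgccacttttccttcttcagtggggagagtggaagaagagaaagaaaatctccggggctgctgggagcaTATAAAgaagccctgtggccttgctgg
The same 11 bases, GGGAATTTCCC, stood 71 to 61 bases before the start in Cxcl1, 97 to 87 bases before it in Cxcl2, and 73 to 63 bases before it in Cxcl3. This run holds a match to the 10-base NF-kB consensus on each strand, shifted by 1 base. Of 32536 promoters of this length, 7.28% hold an NF-kB match, and 14 (0.043%) hold the 11-base run. The Cxcl15 window holds no such match. The TATA box letters were found in Cxcl3, Cxcl15, and Ppbp and in 12.3% of all promoters. AP-1 letters (TGANTCA, in 6.73% of promoters) were found only in Ppbp among the 6 members with a promoter sequence, and C/EBP letters (TTGCNNAA, in 9.57%) in none of the 6. Both strands were searched, the promoters of Ppbp and Cxcr2 held no NF-kB match, and Cxcl5 was not matched. A match of letters describes the window and does not show binding.

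Each tumor had between 31073830 and 36205814 counted reads, and the 7 genes had between 49 and 2120 reads in a tumor. Of the 12 hepatoma markers listed for a check of the tissue, 11 had enough reads to be tested, with Alb at 974 to 1680 FPKM and Afp at 323 to 483 FPKM in the 6 tumors. FPKM are reads scaled by gene length and by library total, so levels of different genes can be set side by side. Changes are log2 fold changes of Sora-treated against control tumors from edgeR, and a gene passed the test at an adjusted p under 0.05 over all 16513 genes with at least 10 reads in at least 3 tumors. In edgeR, 321 genes (1.94%) passed as higher and 222 (1.34%) as lower in Sora-treated tumors. Among the 7 members, Cxcl2 and Cxcl3 were on the higher side of that threshold and Cxcl15 on the lower side, and nothing is read from these counts because the same contrast chose the family. The FPKM of the groups did not overlap, higher in Sora-treated tumors, for 10.6% of the genes tested and for Cxcl2 and Cxcl3. They did not overlap in the other direction for 11.2% of the genes tested and for Cxcl15. No source says whether the tumors came from separate cohorts or were processed on separate days, so the spread is that between these 6 libraries.

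Cxcl2 encodes macrophage inflammatory protein 2, a product of macrophages, neutrophils, and epithelial cells. Its level was 3.37, 2.63, and 3.55 FPKM in control tumors 1, 3, and 4 and 17.4, 4.72, and 11.9 FPKM in Sora-treated tumors 2, 3, and 4. Every Sora-treated tumor lay above every control tumor, but tumor 3 lay close to the controls. Mean levels were 3.18 ± 0.485 FPKM (SD, n = 3) in the control group and 11.3 ± 6.34 FPKM (SD, n = 3) in the Sora group, a log2 fold change of 1.84 (SE 0.37), or 3.59-fold. This log2 fold change ranked 27 from the highest among the 16513 genes tested. Leaving out 1 tumor at a time moved the log2 fold change of Cxcl2 between 1.42 (without tumor 2 of the Sora group) and 2.22 (without its tumor 3).

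Cxcl15 stood at the other end. Its level was 19.2, 19.5, and 19.4 FPKM in control tumors 1, 3, and 4, the narrowest control spread of the 7 genes. It was 4.10, 8.40, and 4.23 FPKM in Sora-treated tumors 2, 3, and 4, all below the control range. The means were 19.4 ± 0.162 FPKM (SD, n = 3) and 5.58 ± 2.45 FPKM (SD, n = 3). The log2 fold change was -1.79 (SE 0.22), which is 3.45-fold lower with Sora. This log2 fold change ranked 28 from the lowest among the genes tested. As for Cxcl2, Sora-treated tumor 3 was the one nearest to the controls, and without it the log2 fold change of Cxcl15 was -2.20.

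Cxcl3, whose product is a close relative of CXCL2, was the ligand with the highest FPKM in each of the 6 tumors. In reads, which are not divided by gene length, Cxcl15 stood above Cxcl3 in every control tumor (1277, 1385, and 1493 reads against 1263, 1259, and 1358). Cxcl3 was at 39.7, 37.1, and 36.8 FPKM in control tumors 1, 3, and 4 and at 55.0, 43.4, and 61.0 FPKM in Sora-treated tumors 2, 3, and 4. The groups did not overlap, and tumor 3 was again the Sora-treated tumor nearest to the controls. Mean levels were 37.9 ± 1.57 FPKM and 53.2 ± 8.94 FPKM (SD, n = 3 each), a log2 fold change of 0.50 (SE 0.12). Cxcl3 and Cxcl2 were the 1 pair, of 21 pairs of members, with 50-base stretches in common, and 5.84% of such stretches in Cxcl2 and 3.51% in Cxcl3 were shared. A part of their reads could therefore match both genes, and the effect of this on their counts was not tested. When any tumor other than Sora-treated tumor 3 was left out, Cxcl2 and Cxcl3 no longer passed the edgeR threshold, whereas among these fits Cxcl15 lost it only without Sora-treated tumor 4.

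**Figure D1:**
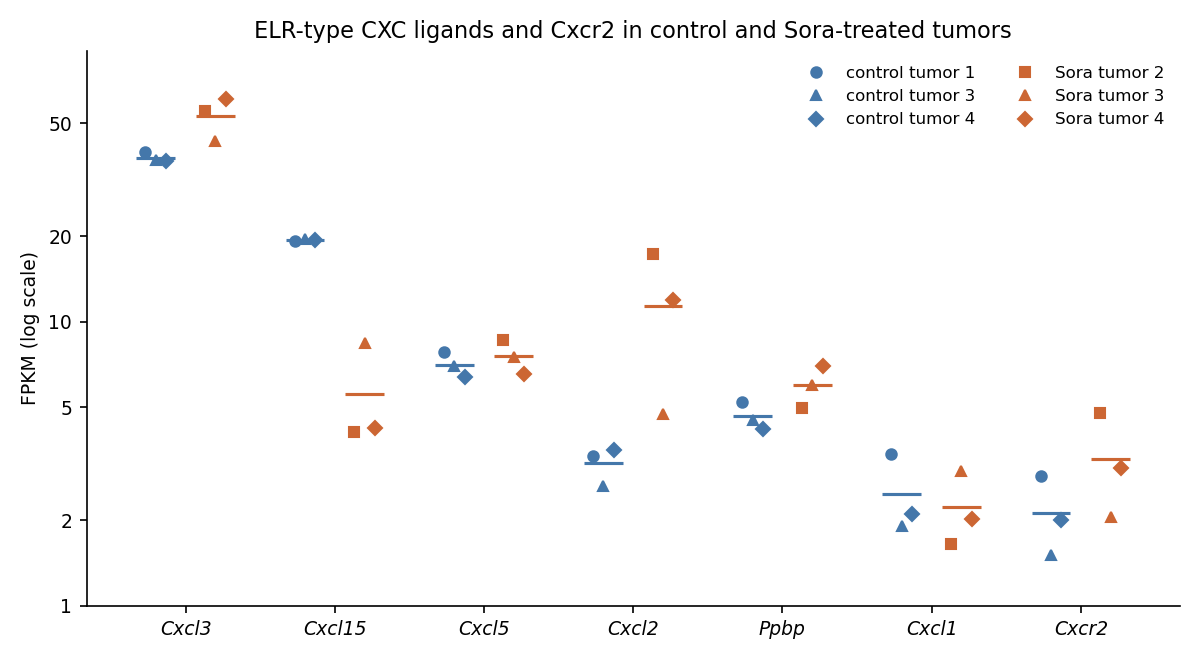
FPKM (vertical axis, log scale) of the 6 ligand genes and Cxcr2 in each tumor, with control tumors in blue, Sora-treated tumors in orange, a symbol for each tumor number, and a line at the mean of each group. The Sora-treated tumors lay above all controls for Cxcl3 and Cxcl2 and below all controls for Cxcl15, and the groups overlapped for Cxcl5, Ppbp, Cxcl1, and Cxcr2.

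Cxcl1, which encodes the keratinocyte-derived chemokine KC and carries the same 11 promoter bases, did not share the direction of Cxcl2. Control tumors 1, 3, and 4 had 3.42, 1.92, and 2.11 FPKM and Sora-treated tumors 2, 3, and 4 had 1.65, 2.99, and 2.03 FPKM. The groups overlapped, and the log2 fold change was -0.14 (SE 0.32). Its sign turned, to 0.14 without control tumor 1, which had the highest Cxcl1, and to 0.04 without Sora-treated tumor 2, which had the lowest. Control tumor 1 also had the highest summed level of 12 keratinocyte and skin markers, 520 FPKM against 144 and 167 FPKM in the other control tumors. Sora-treated tumor 2, with the next highest sum at 469 FPKM, had the lowest Cxcl1 of the 6 tumors. The part of skin content in the level of Cxcl1 was not tested. Within a tumor, Cxcl2 was at 0.986, 1.37, and 1.68 times the FPKM of Cxcl1 in the control group and at 10.5, 1.58, and 5.87 times in the Sora group. Sora-treated tumor 3 therefore lay inside the control range for this ratio, and the other two Sora-treated tumors far above it.

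Cxcl5, a ligand known mainly from epithelial cells, varied little. It had 7.82, 6.99, and 6.37 FPKM in control tumors 1, 3, and 4 and 8.61, 7.52, and 6.53 FPKM in Sora-treated tumors 2, 3, and 4. The groups overlapped, with a log2 fold change of 0.11 (SE 0.13), and 0.01 to 0.19 with 1 tumor left out. Ppbp, the platelet ligand gene, had 5.23, 4.51, and 4.18 FPKM in control tumors 1, 3, and 4 and 4.96, 6.00, and 7.01 FPKM in Sora-treated tumors 2, 3, and 4. Only Sora-treated tumor 2 lay within the control range, and the log2 fold change of Ppbp was 0.39 (SE 0.19), and 0.24 to 0.51 with 1 tumor left out. The highest Ppbp was in Sora-treated tumor 4, not in tumor 2, which had the highest Cxcl2.

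Cxcr2, the receptor gene and a marker of mature neutrophils, had 2.87, 1.51, and 1.999 FPKM in control tumors 1, 3, and 4 and 4.75, 2.05, and 3.06 FPKM in Sora-treated tumors 2, 3, and 4. Control tumor 1 lay above Sora-treated tumor 3, so the groups overlapped. The log2 fold change was 0.65 (SE 0.29), and 4.93% of the genes tested had a higher one. Without control tumor 1 it was 0.90, and without Sora-treated tumor 2 it was 0.30. Among the Sora-treated tumors, Cxcr2 and Cxcl2 were both highest in tumor 2 and lowest in tumor 3. In RNA from whole tumors, fewer cells of a type and less RNA per cell cannot be told apart, and the same holds for more cells and more RNA.

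**Figure D2:**
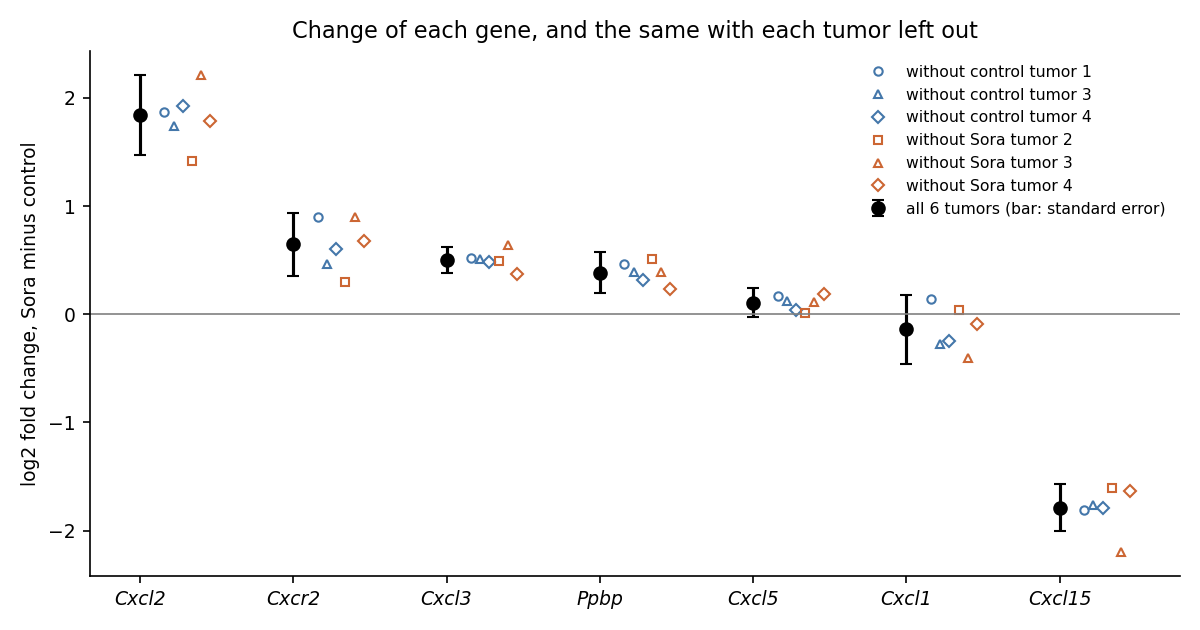
Log2 fold change of Sora-treated against control tumors (vertical axis) for the 7 genes, with black points and standard error bars for all 6 tumors and open symbols for the same value with 1 tumor left out. Cxcl2 stayed between 1.42 and 2.22 and Cxcl15 between -2.20 and -1.61, whereas Cxcl1 crossed 0.

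The sum of the 6 ligand levels overlapped between the groups, but the mixture differed between them. The sum was 78.7, 72.6, and 72.4 FPKM in control tumors 1, 3, and 4 and 91.7, 73.1, and 92.7 FPKM in Sora-treated tumors 2, 3, and 4, so that Sora-treated tumor 3 lay within the control range. Summed without Cxcl15, the ligands had 59.5, 53.1, and 53.1 FPKM in control tumors 1, 3, and 4 and 87.6, 64.7, and 88.5 FPKM in Sora-treated tumors 2, 3, and 4, which did not overlap, and Cxcl15 was left out after its values were seen. Cxcl3 made up 50.8% ± 0.324 (SD, n = 3) of the summed FPKM in the control group and 61.8% ± 3.54 (SD, n = 3) in the Sora group. Cxcl15 made up 26.0% ± 1.40 in the control group and 6.84% ± 4.03 in the Sora group, and Cxcl2 went the other way, with 4.26% ± 0.637 and 12.7% ± 6.23. In control tumors Cxcl15 was the ligand with the next highest level after Cxcl3, at 5.70, 7.42, and 5.47 times the level of Cxcl2. In Sora-treated tumors 2, 3, and 4 that ratio was 0.236, 1.78, and 0.356, so that Cxcl15 was still above Cxcl2 in tumor 3. The shares of Cxcl5 (9.45% and 8.91%), Ppbp (6.21% and 7.06%), and Cxcl1 (3.30% and 2.69%) overlapped between the control and Sora groups. These shares depend on the division by gene length. In CPM, Cxcl15 made up 40.3% of the ligand sum in the control group, above Cxcl3 at 37.7%, and 12.3% in the Sora group, where Cxcl3 made up 54.2%.

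**Figure D3:**
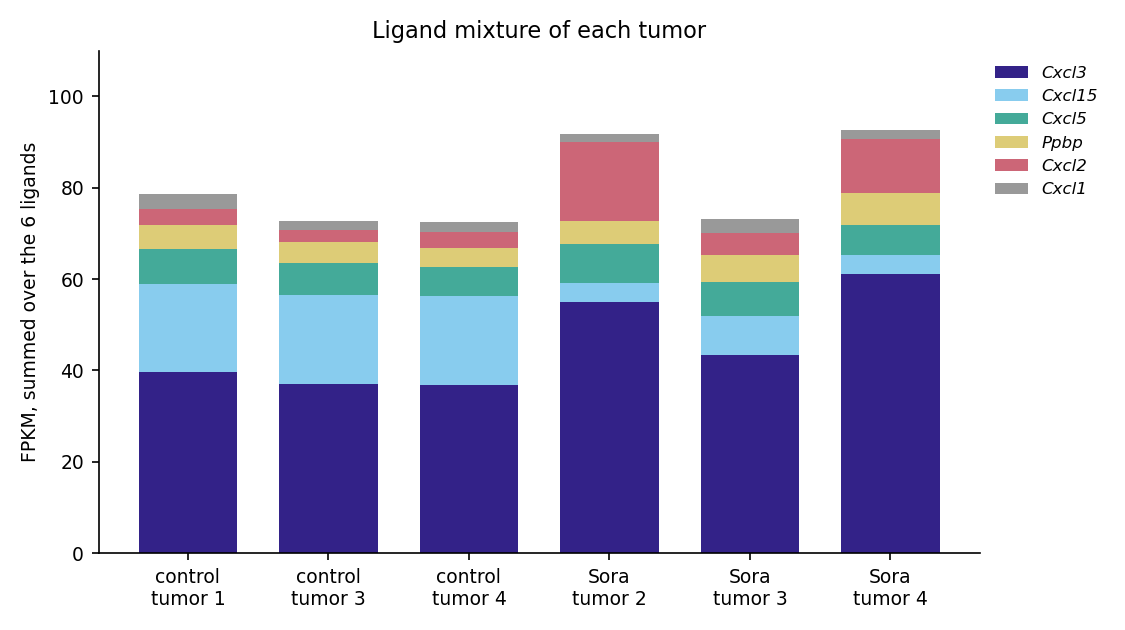
FPKM of the 6 ligand genes stacked for each tumor (vertical axis, FPKM summed over the ligands). The pale blue part, Cxcl15, was near 19 FPKM in every control tumor and at 4.10 to 8.40 FPKM in the Sora-treated tumors, and the red part, Cxcl2, was largest in Sora-treated tumor 2.

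By mean level, the order in control tumors was Cxcl3, Cxcl15, Cxcl5, Ppbp, Cxcl2, Cxcl1, and Cxcr2. The ranges of Cxcl2 and Cxcl1 overlapped, as did those of Cxcl1 and Cxcr2, and the other neighbors in this order were separate. In Sora-treated tumors the order was Cxcl3, Cxcl2, Cxcl5, Ppbp, Cxcl15, Cxcr2, and Cxcl1, and only Cxcl3 was separate from the gene after it.

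The genes next to the ligands on chromosome 5 were examined for changes of their own. The tables hold 19 other genes within 500 kb of a ligand, and 13 of them were tested. Areg and Btc, which encode the epidermal growth factor receptor ligands amphiregulin and betacellulin, rose, and Alb fell. The median log2 fold change of the 13 genes was -0.02, against a median of -0.0004 for all genes tested. Areg had 11.2, 15.8, and 13.4 FPKM in control tumors 1, 3, and 4 and 54.8, 27.6, and 57.3 FPKM in Sora-treated tumors 2, 3, and 4. Its groups were far apart (log2 fold change 1.80, SE 0.25, edgeR adjusted p = 0.00868), and among the fits with 1 tumor left out it missed the threshold only without Sora-treated tumor 4 (edgeR adjusted p = 0.0584). It passed in 15 of the 18 alternatives. Areg starts 235.7 kb after the start of Cxcl2 and Btc 453.4 kb after it. Btc had 5.08 ± 0.914 FPKM in control and 11.3 ± 3.06 FPKM in Sora-treated tumors (log2 fold change 1.16, SE 0.21, edgeR adjusted p = 0.0188), and when each tumor was left out in turn its adjusted p ran from 0.00151 to 0.104, with the threshold missed without control tumor 1 or 4 or without tumor 2 or 4 of the Sora group. As for Cxcl2, tumor 3 was the lowest of the Sora-treated tumors for Areg and Btc.

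The genes closest to the ligands were among those that did not pass. Pf4, the gene of platelet factor 4, lies between Ppbp and Cxcl3 and had 60.2 ± 11.3 FPKM in control and 59.0 ± 3.06 FPKM in Sora-treated tumors. Its log2 fold change was -0.02 (SE 0.13, edgeR adjusted p = 0.966). Mthfd2l, which starts 27.0 kb after the start of Cxcl2, had a log2 fold change of 0.14 (SE 0.16, edgeR adjusted p = 0.713). Ereg, the epiregulin gene between Cxcl2 and Areg, was low at 0.322 FPKM in control and 0.418 FPKM in Sora-treated tumors, and its log2 fold change of 0.39 had an SE of 0.56. On the other side, Alb fell from 1555 ± 203 FPKM to 1058 ± 122 FPKM (log2 fold change -0.55, SE 0.12, edgeR adjusted p = 0.0410), with a leave-one-out range of 0.0217 to 0.182 and the threshold missed without control tumor 3 or 4 or without tumor 2 or 4 of the Sora group. Its neighbor Afp, the alpha-fetoprotein gene, had a log2 fold change of -0.09 (SE 0.14, edgeR adjusted p = 0.815).

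**Figure D4:**
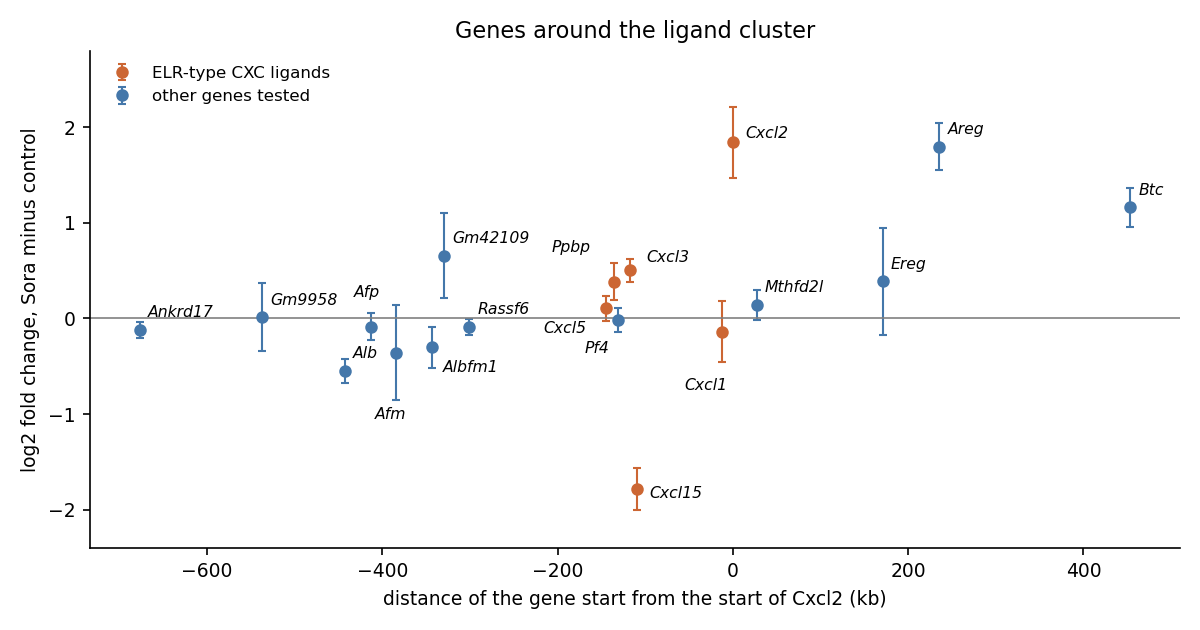
Log2 fold change of Sora-treated against control tumors (vertical axis, bars are standard errors) against the distance of the gene start from the start of Cxcl2 in kb, with the ligands in orange and the 13 other genes tested in blue. Cxcl15 at -1.79 and Cxcl2 at 1.84 stood in a region where Pf4, Cxcl1, Cxcl5, and Mthfd2l lay between -0.14 and 0.14. In the same region Ppbp was at 0.39 and Cxcl3 at 0.50, and Areg and Btc stood high further along.

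The ligands were then set beside 14 lists of related genes and cell type markers. These held 208 genes, of which 183 were tested, and 9 of them rose and 4 fell, to be read beside the 1.94% and 1.34% of all genes tested. Over the 18 alternatives, up to 2 other CXC ligands, 1 other receptor, and 1 lung epithelial gene fell, in lists where none passed here. Together with Areg and Btc, 15 genes outside the family passed, of which 13 also passed in DESeq2 and 14 missed the edgeR threshold without Sora-treated tumor 4.

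Other CXC ligands, most of which attract lymphocytes and not neutrophils, had no member that passed among 8 tested, and 6 of the 8 were lower in Sora-treated tumors, with a median log2 fold change of -0.23. Cxcl9 and Cxcl10, interferon-induced ligands of CXCR3, had 148 and 121 FPKM in control tumors and 114 and 85.6 FPKM in Sora-treated tumors, with edgeR adjusted p of 0.307 and 0.0583. Cxcl16, the ligand of CXCR6, had 126 and 105 FPKM (edgeR adjusted p = 0.244). All of these were at higher levels than Cxcl3, the highest ELR-type ligand. Of 10 other CXC and atypical chemokine receptors, none passed, with 5 higher and 5 lower and a median of 0.11. Cxcr6 was at 21.2 and 18.0 FPKM, Cxcr4 at 8.61 and 7.61 FPKM, and the scavenging receptor Ackr3 at 4.99 and 6.01 FPKM in control and Sora-treated tumors.

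Among 19 other neutrophil attractants and their receptors, none rose and C3 fell (1 and 2 genes in DESeq2), and the median log2 fold change was 0.06. C3, the complement component whose cleavage releases the anaphylatoxin C3a, had 323, 378, and 345 FPKM in control tumors 1, 3, and 4, against 227, 244, and 249 FPKM in tumors 2, 3, and 4 of the Sora group. The groups did not overlap (log2 fold change -0.53, SE 0.10, edgeR adjusted p = 0.0211), and the threshold was missed without control tumor 4 or without tumor 2 or 4 of the Sora group, with adjusted p up to 0.109. The chemokine gene Ccl6 (284 and 292 FPKM) and Anxa1, whose product annexin A1 acts on formyl peptide receptors (196 and 201 FPKM), did not pass.

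The cytokines and receptors that are known to induce ELR chemokines gave 18 genes tested, of which 2 rose and none fell, with a median of 0.09. Il1rn, which encodes the antagonist of the interleukin 1 receptor, had 24.3, 22.8, and 23.8 FPKM in control tumors 1, 3, and 4 and 34.3, 27.4, and 38.7 FPKM in Sora-treated tumors 2, 3, and 4 (log2 fold change 0.52, SE 0.12, edgeR adjusted p = 0.0414). Osm, the gene of the cytokine oncostatin M, had 2.06, 2.16, and 1.54 FPKM in control tumors 1, 3, and 4 and 5.36, 2.68, and 4.25 FPKM in Sora-treated tumors 2, 3, and 4 (log2 fold change 1.10, SE 0.26, edgeR adjusted p = 0.0450). Both had their lowest Sora-treated value in tumor 3. Both missed the threshold without any tumor other than Sora-treated tumor 3, with adjusted p up to 0.167 for Il1rn and 0.188 for Osm in edgeR. Il1b, named after its values were seen, had 17.6, 12.7, and 15.5 FPKM in control tumors 1, 3, and 4 and 34.4, 16.3, and 26.2 FPKM in Sora-treated tumors 2, 3, and 4 and did not pass (log2 fold change 0.77, SE 0.22, edgeR adjusted p = 0.0827). The genes of the list with the most reads were the receptors Tnfrsf1a (92.0 and 95.8 FPKM) and Tnfrsf1b (21.2 and 20.1 FPKM) and the cytokine Csf1 (23.4 and 25.3 FPKM), none of which passed. Il17c, Il17f, and Csf3 had too few reads to be tested.

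Of 21 NF-kB genes and targets induced alongside the ELR chemokines, Nfkbiz and Lcn2 rose, none fell, and the median log2 fold change was 0.05. Nfkbiz, which encodes the coactivator I kappa B zeta, had 11.86, 10.95, and 11.01 FPKM in control tumors 1, 3, and 4 and 15.4, 14.7, and 16.7 FPKM in Sora-treated tumors 2, 3, and 4 (log2 fold change 0.48, SE 0.08, edgeR adjusted p = 0.0163). Lcn2, which encodes the siderophore-binding protein lipocalin 2, had 2.51, 2.60, and 2.66 FPKM in control tumors 1, 3, and 4 and 6.90, 6.35, and 4.78 FPKM in Sora-treated tumors 2, 3, and 4 (log2 fold change 1.22, SE 0.22, edgeR adjusted p = 0.0191). For Lcn2, tumor 4 and not tumor 3 was the Sora-treated tumor nearest to the controls. The highest adjusted p in edgeR with 1 tumor left out was 0.0960 for Nfkbiz and 0.0867 for Lcn2, and the threshold was missed for both genes without control tumor 4 or without tumor 2 or 4 of the Sora group and for Lcn2 also without control tumor 1. The genes of the list with the highest CPM did not pass. Icam1 had 95.2 and 88.7 FPKM, Zfp36l1 had 75.8 and 76.7 FPKM, and Nfkb2 had 14.9 and 16.5 FPKM in control and Sora-treated tumors.

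The 22 genes of signaling below CXCR2 (G proteins, kinases, and arrestins) held none that passed in edgeR with all 6 tumors, the filter on low counts, and robust=FALSE, but 6 fell in DESeq2, in edgeR with no filter, and in edgeR without Sora-treated tumor 3, 2 fell with robust=TRUE, and 1 fell without control tumor 4. Of the 22, 17 were lower and 5 higher in Sora-treated tumors, with a median of -0.17. The G protein genes Gnai2 (227 and 225 FPKM), Gnai3 (76.2 and 75.1 FPKM), and Gnb1 (103 and 104 FPKM) had log2 fold changes within 0.02 of 0.

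Neutrophils are the main carriers of CXCR2, and the median log2 fold change of their markers was 0.62. Of 19 neutrophil genes tested, 15 were higher and 4 lower, 3 rose, and none fell. S100a9, which encodes a subunit of calprotectin, had 22.1, 27.5, and 19.4 FPKM in control tumors 1, 3, and 4 and 80.3, 31.5, and 46.7 FPKM in Sora-treated tumors 2, 3, and 4 (log2 fold change 1.21, SE 0.28, edgeR adjusted p = 0.0424). Its order among the Sora-treated tumors, 2 before 4 before 3, was that of Cxcl2 and Cxcr2. The lectin receptor gene Clec4d (5.57 ± 0.575 and 9.49 ± 2.04 FPKM, edgeR adjusted p = 0.0382) and G0s2, an inhibitor of lipid breakdown (9.22 ± 1.01 and 16.9 ± 4.37 FPKM, edgeR adjusted p = 0.0378), also rose, both with their highest value in tumor 4. All of these calls were lost when any tumor other than Sora-treated tumor 3 was left out, with adjusted p up to 0.145 for S100a9, 0.162 for Clec4d, and 0.175 for G0s2, and in DESeq2 S100a9 had an adjusted p of 0.0532.

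Other neutrophil genes did not pass. Mmp9, its gene with the most reads, had 64.8 ± 7.32 and 54.8 ± 8.74 FPKM in control and Sora-treated tumors (edgeR adjusted p = 0.408), a gene that macrophages also express. Csf3r, the receptor gene of granulocyte colony-stimulating factor, had 7.43 ± 0.914 and 10.4 ± 2.18 FPKM (edgeR adjusted p = 0.0721), and the integrin gene Itgam 20.7 ± 0.336 and 24.2 ± 1.36 FPKM (edgeR adjusted p = 0.133). Ly6g, a defining surface marker of mouse neutrophils, was at 0.0964 to 0.344 FPKM in the 6 tumors and too low to be tested, as were the granule genes Camp, Mpo, Elane, and Fcnb. The FPKM summed over the 24 markers was 192, 213, and 169 in control tumors 1, 3, and 4, against 303, 226, and 252 in tumors 2, 3, and 4 of the Sora group, so it was higher in the Sora group, without overlap. Within the Sora group its order by tumor was that of Cxcl2 and Cxcr2. S100a9 and S100a8 (52.0, 16.1, and 29.1 FPKM in Sora-treated tumors 2, 3, and 4) had that order and weigh heavily in the sum. Other markers with high FPKM had other orders. Retnlg was at 28.5, 50.1, and 18.1 FPKM and Mmp9 at 46.4, 54.1, and 63.9 FPKM in the same tumors. By flow cytometry in this model at this dose, the paper reports that Sora did not change neutrophils as a share of tumor-infiltrating leukocytes. A share of leukocytes and a level in whole-tumor RNA are different measures. The part of neutrophil content in the levels of Cxcl2 and Cxcr2 was not tested. Across 18 alternative settings, the median of the list ran from 0.26 to 0.82 and the number of its genes that rose from 0 to 7.

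Platelets are the textbook source of Ppbp. Of 13 platelet and megakaryocyte genes, 7 were tested, none passed, and the median log2 fold change was 0.01. Their summed level was 14.1 to 16.3 FPKM in the control and 12.9 to 15.4 FPKM in the Sora group, and Gp9 was at 0 in all tumors. Itgb3 (6.97 and 6.96 FPKM), Itga2b (1.45 and 1.56 FPKM), and Clec1b (4.52 and 3.68 FPKM) had the most reads. The summed level overlapped between the groups, whereas Clec1b did not and was lower in every Sora-treated tumor.

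Macrophages and monocytes, a source of CXCL2 elsewhere, gave 14 genes tested, of which none passed, 13 were lower, and the median was -0.24. Their summed level was 2245 to 2442 FPKM in the control and 1785 to 2291 FPKM in the Sora group, with the highest value of the Sora group in tumor 3. In DESeq2 6 of the 14 fell and 0 rose, with no filter 6 fell and 1 rose, and without Sora-treated tumor 3, 4 fell and 1 rose. Lyz2 had 996 and 932 FPKM, C1qa 334 and 267 FPKM, and C1qb 338 and 266 FPKM in control and Sora-treated tumors.

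Most listed genes of lung epithelium, where Cxcl15 was first described, had few reads. The surfactant genes Sftpa1, Sftpb, Sftpc, and Sftpd and the secretoglobin genes Scgb1a1 and Scgb3a1 had too few reads to be tested. Per tumor, Cxcl15 had 271 to 1493 reads, and Napsa of this list had 321 to 627. Which cells the Cxcl15 RNA came from was not tested. Napsa (10.7 and 7.61 FPKM, edgeR adjusted p = 0.116) and Ager (1.01 and 1.03 FPKM) were tested and did not pass, and the median of the pair was -0.22. The list summed to 10.4 to 13.6 FPKM in the control and 7.42 to 9.74 FPKM in the Sora group.

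All 12 keratinocyte and skin genes had a log2 fold change above 0 and none passed (median 0.40), and for Krt1 the mean FPKM was 33.8 in the control and 33.6 in the Sora group. Krt14 (122 ± 113 and 170 ± 63.4 FPKM) and Krt5 (60.9 ± 44.7 and 83.3 ± 21.5 FPKM) had wide control spreads, and Krt10 had 11.3 and 13.2 FPKM. The summed level was 520, 144, and 167 FPKM in control tumors 1, 3, and 4 and 469, 322, and 316 FPKM in Sora-treated tumors 2, 3, and 4, so the groups overlapped through control tumor 1 alone. Without control tumor 1, 6 of the 12 genes rose in edgeR and the median was 1.15, and with the replicate number as a block 6 rose and the median was 0.89. In the block fit, control tumor 1 and Sora-treated tumor 2 add nothing to the group difference, because no other tumor carries their numbers. With any other tumor left out, none rose, and the median ran from 0.13 (without control tumor 3) to 0.53 (without Sora-treated tumor 4).

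Among 11 hepatoma genes tested, Apoa1 and Hnf4a rose, Alb and Ttr fell, and the median was -0.04. Ttr, the transthyretin gene, had 7.19 ± 1.53 FPKM in control and 1.61 ± 0.253 FPKM in Sora-treated tumors (log2 fold change -2.15, SE 0.21, edgeR adjusted p = 0.00555), and it still passed with any 1 tumor left out. The transcription factor gene Hnf4a had 17.1 ± 1.39 and 29.4 ± 4.68 FPKM (log2 fold change 0.80, edgeR adjusted p = 0.0130, and 0.0816 at most when 1 tumor was left out, with the threshold missed without control tumor 4 or Sora-treated tumor 4). The apolipoprotein gene Apoa1 had 22.5 ± 2.19 and 45.3 ± 18.8 FPKM (log2 fold change 1.03, edgeR adjusted p = 0.0470) and missed the threshold without any tumor other than Sora-treated tumor 3, with adjusted p up to 0.152, and in DESeq2 (0.0627). Trf, the transferrin gene, had 694 and 731 FPKM. The summed level of the hepatoma genes was 2404 to 3036 FPKM in the control and 2300 to 2413 FPKM in the Sora group.

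Endothelial cells (10 genes tested, none passed, median -0.10) summed to 109 to 118 FPKM in the control and 85.4 to 115 FPKM in the Sora group, with Pecam1 at 31.9 and 27.1 FPKM, Esam at 34.5 and 30.0 FPKM, and Cdh5 at 15.12 and 13.02 FPKM. Of 10 fibroblast genes, 9 were lower, Postn fell, and the median was -0.21, while 4 fell in DESeq2 and 3 without Sora-treated tumor 3. Postn, which encodes the matrix protein periostin, had 154 ± 20.8 and 95.9 ± 11.6 FPKM (log2 fold change -0.68, SE 0.12, edgeR adjusted p = 0.0167) and, among the fits with 1 tumor left out, missed the threshold only without Sora-treated tumor 4 (edgeR adjusted p = 0.0966). It passed in 16 of the 18 alternatives. Dcn (767 and 775 FPKM), Col1a1 (368 and 273 FPKM), and Col3a1 (353 and 261 FPKM) did not pass. The fibroblast genes summed to 2096 to 2196 FPKM in the control and 1610 to 1944 FPKM in the Sora group, in the direction of Cxcl15. The sums of the lung epithelium, other CXC ligand, and other receptor lists were also lower in the Sora group, without overlap. The part of fibroblasts or of any other listed cell type in the level of Cxcl15 was not tested.

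**Figure D5:**
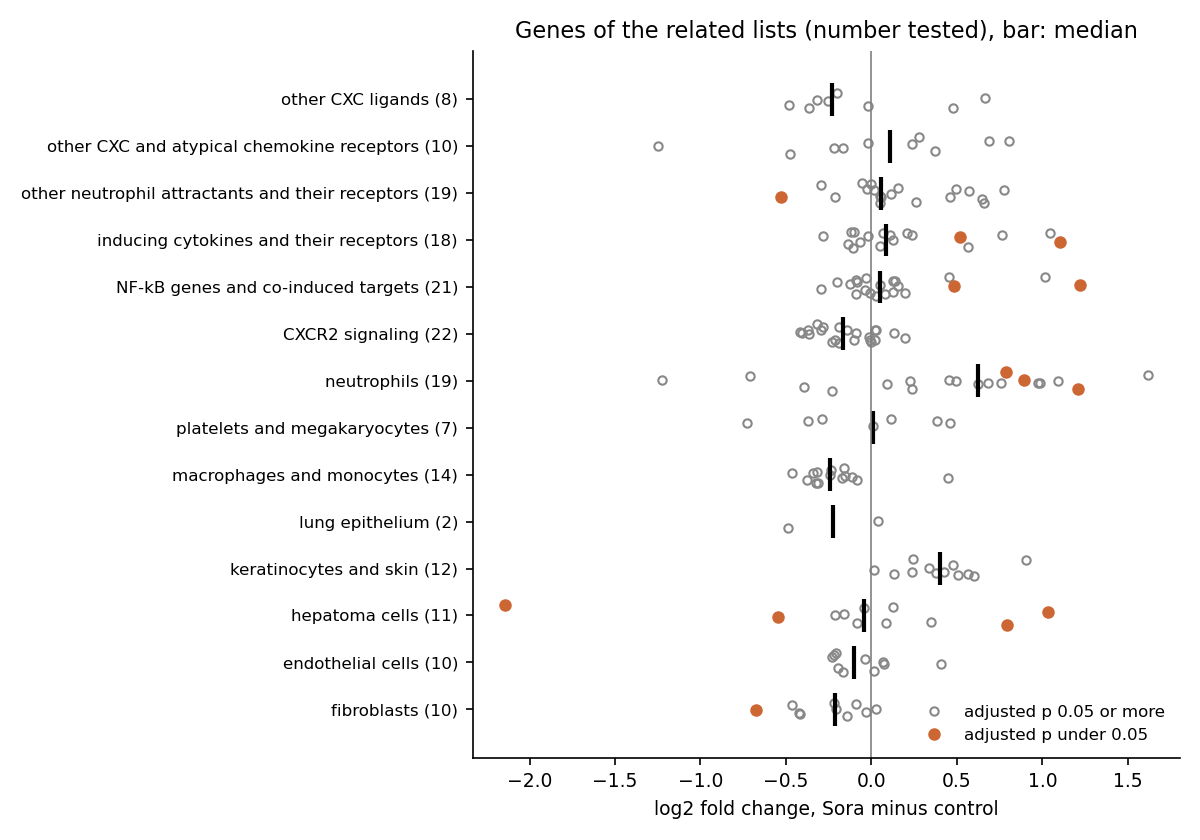
Log2 fold change of Sora-treated against control tumors (horizontal axis) for each tested gene of the 14 lists, with the number of genes tested in parentheses, a black bar at the median, and filled points for an edgeR adjusted p under 0.05. The median was 0.62 for neutrophils and 0.40 for keratinocytes and skin, and filled points stood on the right of 0 in the neutrophil, NF-kB, inducing cytokine, and hepatoma lists. On the left of 0 they stood in the hepatoma, fibroblast, and other neutrophil attractant lists.

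The genes whose profile over the 6 tumors was most like that of Cxcl2 were Odf2l, Btbd3, Baalc, Vps37b, and Gm51785, with Pearson r of 0.997, 0.994, 0.991, 0.990, and 0.988 for log2(CPM + 1) among 14110 genes. Their levels differed widely, from 14.2 and 19.7 FPKM for Vps37b in control and Sora-treated tumors to 0.0962 and 0.197 FPKM for Baalc. The genes most like Cxcl15 were Ddc, Mfap5, Gm14325, Rp1, and Itpr2, with r of 0.998, 0.996, 0.996, 0.995, and 0.995. Ddc, the gene of aromatic amino acid decarboxylase, was at 6.98 and 3.40 FPKM, and Itpr2, the gene of an inositol trisphosphate receptor, at 5.75 and 3.87 FPKM. These correlations describe 6 tumors in 2 groups that share libraries and depth, and they carry no p-value.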

How the data were processed

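RNA-seq was analyzed from 3 control and 3 Sora-treated tumors. The authors deposited counts, which are whole reads per gene without normalization, for 5 tumors in the count table used here, and FPKM, which are counts divided by gene length and library total, for all 6. The paper names Bowtie2 on GRCm38, whereas the submitters' processing notes name fastp, HISAT2, HTSeq, R 3.2.0, DESeq2, and GRCm39. The use of strand and the annotation are not given in the sources used here, and the tables hold no coordinates. For tumor 4 of the Sora group, counts were worked back from FPKM with gene lengths taken from the remaining tumors. In the 5 known tumors this returned the count of each of the 20969 to 21229 genes with a length from the others, to within 0.001 of a whole number. In tumor 4, 342 genes (512 reads) without a length stayed at 0.

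The test was edgeR 4.0.16 (R 4.3.3) with glmQLFTest, TMM scaling, and robust=FALSE. It was run on the 16513 genes that had a count of 10 or more in at least 3 tumors, and p-values were adjusted by Benjamini-Hochberg over all of them. Depth was 31073830 to 36205814 counts per tumor, and no member had fewer than 49 reads in a tumor. The scripts were tested on simulated data. Alternatives were DESeq2 1.42.0, other scalings and filters, robust=TRUE, limma 3.58.1 on log2 FPKM (pseudocount 1 or 0.1, genes of 1 FPKM or more in 3 tumors, or every gene with a value), a replicate block, and leaving out each tumor. The members and gene lists were chosen with earlier results of these data known. Named genes are the members, list genes and chromosome 5 neighbors with an adjusted p under 0.05, the 3 genes of each list with the highest mean CPM, and the 5 genes with a mean of at least 1 CPM most like Cxcl2 or Cxcl15. Other genes named were chosen after their values were seen. Promoters are RefSeq sequences on GRCm38.p6, matched by symbol for 6 of the 7 members.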

Additional observations from a re-analysis of the deposited data

How the results depend on the processing

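The log2 fold changes of Cxcl2 (1.32 to 2.22), Cxcl15 (-2.20 to -1.61), Cxcl3 (0.37 to 0.64), Cxcl5, Ppbp, and Cxcr2 had the same sign in all 18 alternatives, and that of Cxcl1 in 15 of 18. Cxcl15 passed the threshold in 16 of the alternatives, Cxcl2 in 7, and Cxcl3 in 8. The counts of genes that passed moved far more, and the cause was not tested. DESeq2 gave 619 genes up and 575 down, with 22 list genes down. With no filter 570 genes rose and 577 fell, with 18 and 22 list genes. With robust=TRUE, 1 member passed as higher and 8 list genes fell. In limma on log2(FPKM + 1), 180 genes rose, 106 fell, 0 members passed as higher, and 4 list genes rose. With a pseudocount of 0.1 these were 166, 86, 0, and 4. With limma on all genes, 0 genes, members, and list genes passed in either direction, while 1588 and 1527 genes had an unadjusted p under 0.05. Leaving out 1 tumor gave 4 to 574 genes up, 1 to 571 down, 0 to 2 members higher, 0 to 1 lower, 0 to 17 list genes up, and 1 to 19 down, with the fewest genes without Sora-treated tumor 4 and the most without Sora-treated tumor 3. It gave log2 fold changes of 1.42 to 2.22 for Cxcl2 and -2.20 to -1.61 for Cxcl15. DESeq2 on the deposited counts only, without Sora-treated tumor 4, was an alternative chosen after seeing the data. It had 263 genes up, 215 genes down, 0 members higher, and 10 list genes down.

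With CPM, which are not divided by length, in place of FPKM, Cxcl3 made up 37.7% of the ligand sum in the control and 54.2% in the Sora group, Cxcl15 40.3% and 12.3%, and Cxcl2 3.37% in the control group. Labels of both groups use the numbers 3 and 4, and no source says what a shared number means. Deviations of same-numbered tumors from their group means had r of -0.033 and -0.074, and those of other pairs ran from -0.157 to 0.259. So few pairs cannot settle whether same-numbered tumors shared more than a number. With a replicate block, 80 genes rose and 45 fell, 0 members passed as higher, 2 list genes fell, and the log2 fold change of Cxcl1 was 0.30. Cxcl1 had the fewest reads of the members, 49 to 102 per tumor.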
